A study of Homo sapiens with 3 samples.

Results

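Among droplet transcriptomes of stem cell-derived alpha (SC-alpha) cell cultures, a small set of barcodes carried transcripts of the interstitial collagens. A barcode stands for 1 droplet and, in most cases, 1 cell. The barcodes described here had at least 1000 genes, at most 20% mitochondrial unique molecular identifiers (UMIs, each counting 1 captured RNA molecule) and at least 10 UMIs of COL1A1, COL1A2 and COL3A1 in sum. They numbered 118 of the 3653 barcodes that passed the filter, out of 9683 barcodes in all, and are called collagen barcodes below. Under the same filter, 2627 barcodes had GCG, the glucagon transcript, at 5% of their UMIs or more (GCG barcodes), and 908 met neither rule (other barcodes). One collagen barcode also met the GCG rule. It is described on its own and enters neither sum, which leaves 117.

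The cultures were grown from the established line HUES8, which is of human embryonic origin and pluripotent, and were differentiated in the dish into pancreatic islet cells of the alpha type, which secrete glucagon. All 3 libraries belong to a single group, SC-A replicates 1 to 3, with no treatment, no other genotype and no untreated arm, so every comparison here is between barcodes of the same libraries. Clusters were dispersed enzymatically and loaded on the 10x Genomics single-cell 3' v3 chemistry. The labels do not say whether the replicates were separate differentiations, so p-values speak for these libraries only. They lean on the spread shared across genes and do not measure the spread of each gene between libraries. The libraries held 30139788, 31122791 and 30980799 UMIs, and 1160, 1027 and 1466 barcodes passed the filter in replicates 1, 2 and 3.

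Mesenchymal cells build connective tissue. Fibroblasts and related cells secrete collagen I, whose trimer is made of the COL1A1 and COL1A2 chains, and collagen III, made of COL3A1. Small leucine-rich proteoglycans such as lumican (LUM) bind these fibrils and regulate their spacing. Periostin (POSTN) is a matrix protein of collagen-rich tissues, and PRRX1 is a homeobox factor of embryonic mesenchyme. In the developing pancreas, mesenchyme surrounds the epithelium and supplies growth factors to it. Stem cell-derived islet cultures are meant to be endocrine, and mesenchymal cells are one of their known off-target products.

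Collagen barcodes were unevenly spread over the libraries. Replicate 1 held 9 of 1160 (0.776%, 95% Clopper-Pearson interval 0.355% to 1.47%), and replicate 2 held 11 of 1027 (1.07%, interval 0.536% to 1.91%). Replicate 3 held 97 of 1466 (6.62%, interval 5.40% to 8.01%) plus the barcode that met both rules. The intervals cover counting error only. With that barcode counted, the mean share was 2.84% ± 3.33 (SD, n = 3 libraries), and without replicate 3 it was 0.923%. Replicate 1 fell below the minimum of 10 barcodes per side, so the tests below rest on replicates 2 and 3, with 1 residual degree of freedom, and levels are given for all 3 libraries.

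**Figure D1:**
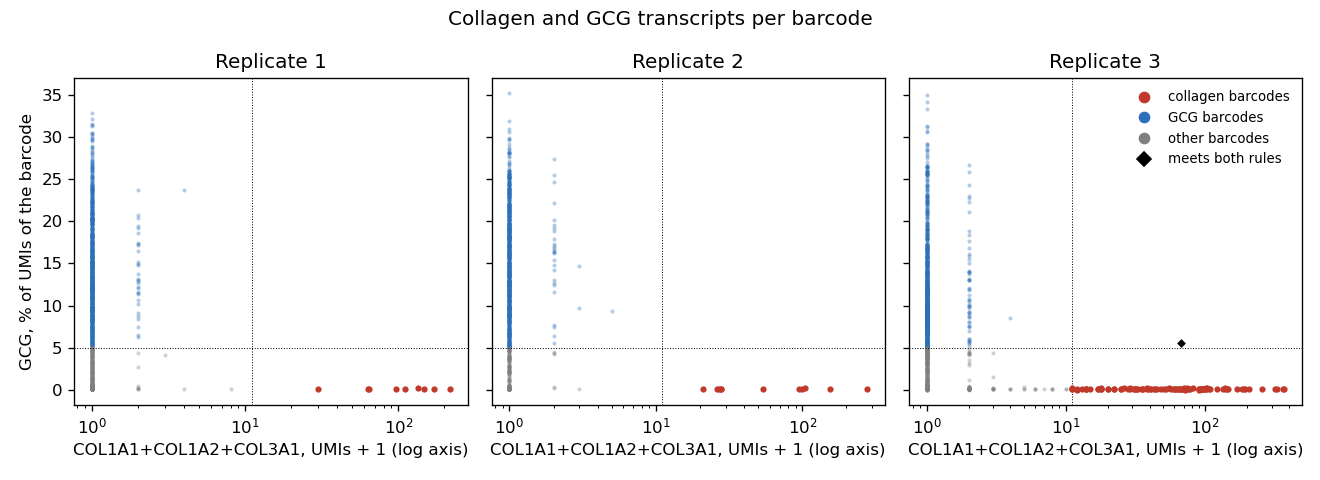
Each point is a barcode that passed the filter, placed by its summed COL1A1, COL1A2 and COL3A1 UMIs plus 1 (log axis) and by GCG as a percent of its UMIs, with dotted lines at both thresholds and 1 panel per replicate. Collagen barcodes reach 216, 275 and 368 collagen UMIs in replicates 1, 2 and 3 and hold at most 0.214% GCG, while GCG barcodes hold at most 3, 4 and 3 collagen UMIs.

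The barcodes were chosen by their UMIs of these 3 collagen genes, so the levels of those genes are a description. COL1A1 (chr17:50183289-50201632, GRCh38) stood at 3047, 2012 and 3011 CPM (UMIs per 1000000 UMIs of the sum) in the summed collagen barcodes of replicates 1, 2 and 3, against 0.914, 0.792 and 1.89 CPM in GCG barcodes. COL1A2 (chr7:94394561-94431232) stood at 1418, 1459 and 1962 CPM in collagen barcodes, against 0.392, 0.106 and 1.29 CPM in GCG barcodes. COL3A1 (chr2:188974320-189012746) stood at 2252, 1147 and 1792 CPM in collagen barcodes, against 0.914, 0.951 and 2.58 CPM in GCG barcodes. Per barcode the median was 110, 53 and 60 collagen UMIs in the 3 libraries, with ranges of 29 to 216, 20 to 275 and 10 to 368. No single collagen gene was seen in every member: COL3A1 had a UMI in 113, COL1A1 in 99 and COL1A2 in 93 of 117. Of the GCG barcodes, 96.3%, 96.5% and 93.9% held no collagen UMI at all.

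The threshold fell where few barcodes lay. Over the 3 libraries, 10 barcodes had 5 to 9 collagen UMIs and 10 had 10 to 14, against 3338 with none and 30 with 100 or more. All 10 barcodes just inside the threshold came from replicate 3, and so did 9 of the 10 just outside it. Depth was similar to that of GCG barcodes in each library. Median UMIs were 16431, 19655 and 10434 in collagen barcodes, against 16492, 21810 and 10514 in GCG barcodes. The mitochondrial share was lower, at medians of 9.37%, 10.7% and 9.15% in collagen barcodes, against 15%, 14.8% and 15.1% in GCG barcodes.

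Markers that the rule did not use followed the label. LUM (chr12:91102629-91111831) stood at 1543, 328 and 987 CPM in collagen barcodes, against 0, 0.0528 and 1.39 CPM in GCG barcodes. POSTN (chr13:37562583-37598844) stood at 401, 691 and 699 CPM in collagen barcodes, against 0.131, 0.0528 and 0.496 CPM in GCG barcodes. PRRX1 (chr1:170662728-170739419) stood at 433, 148 and 378 CPM in collagen barcodes, against 0.0653, 0 and 0.198 CPM in GCG barcodes. For these 3 genes every library's collagen barcodes were above every library's GCG barcodes. The fitted log2 fold change was 9.90 ± 0.31 (SE) for LUM and 11.34 ± 0.34 for POSTN. Each SE was derived from the test statistic, so it also leans on the spread shared across genes and is not the spread between libraries. PRRX1 had 3 UMIs over all GCG barcodes, so no fold is given, but it passed the test. LUM and POSTN had 15 and 8 UMIs there. Genes this low in GCG barcodes could be tested only through their level in collagen barcodes, which all but fixes their direction. Passing is thus no separate support for the label. Calls here and below are at a Benjamini-Hochberg adjusted p of 0.05 from the quasi-likelihood test of edgeR, in a fit that kept each library as a block. At that threshold 19.8% of the 13365 genes tested were higher in collagen barcodes and 20.7% were lower, 40.5% in either direction.

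LUM, POSTN and PRRX1 also coincided in single barcodes. Of 117 collagen barcodes, 62 held at least 1 UMI of all 3 genes, 23 of 2, 26 of 1 and 6 of none. Of 2627 GCG barcodes none held 2 or more, and of 908 other barcodes 5 did. After thinning each barcode of at least 5000 UMIs to 5000, LUM was found in 70.2% ± 22.4 of collagen barcodes, POSTN in 60.7% ± 10.4 and PRRX1 in 55.8% ± 1.4 (SD, n = 3 libraries). In thinned GCG barcodes LUM was found in 0.155% and POSTN in 0.116% on average. The unthinned shares in collagen barcodes were 81.0%, 76.2% and 72.5%. Thinning left out 8 collagen barcodes, all from replicate 3, and 38, 85 and 53 GCG barcodes.

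**Figure D2:**
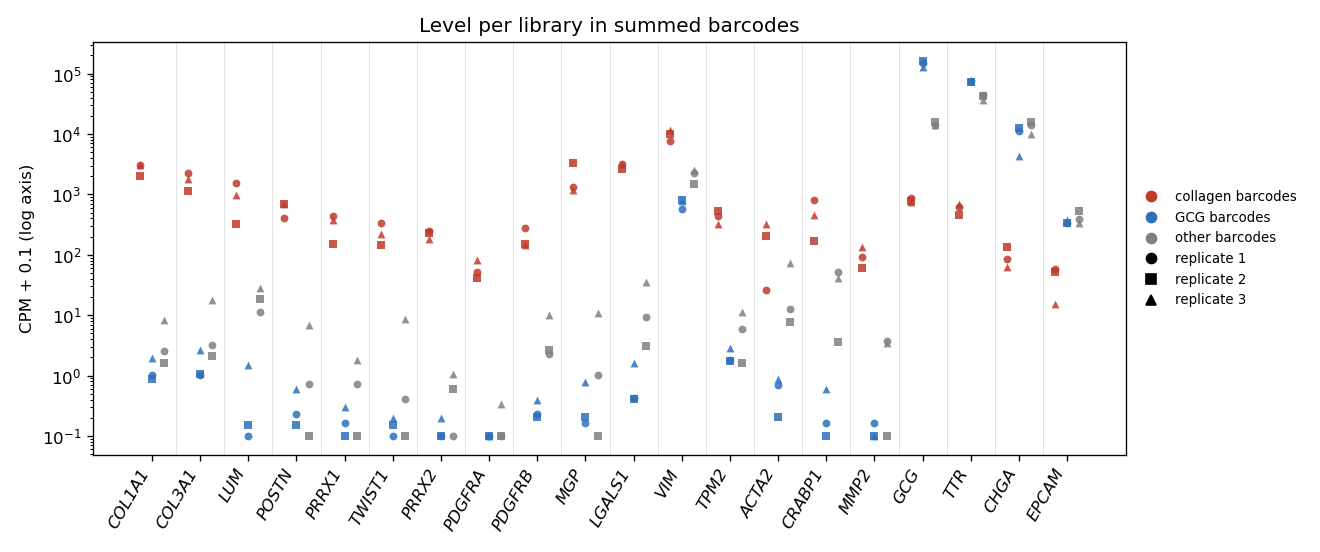
Level per library, as CPM plus 0.1 on a log axis, of the summed collagen, GCG and other barcodes for 20 genes, with 1 marker shape per replicate. Apart from VIM, the mesenchymal genes sit high in collagen barcodes and low on the axis in GCG barcodes. VIM is higher in collagen barcodes but well above the bottom of the axis in GCG barcodes. GCG, TTR and CHGA lie in the opposite order.

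The fibrillar and other collagens outside the rule were higher in collagen barcodes than in GCG barcodes for 13 of 13 genes tested (median log2 fold change 6.71, against -0.15 over all genes tested). COL11A1, a minor fibrillar collagen of cartilage and embryonic matrix, stood at 151, 189 and 110 CPM in collagen barcodes and at 0.0653, 0.0528 and 0.298 CPM in GCG barcodes (log2 fold change 9.71 ± 0.47). COL12A1, a collagen that decorates fibrils, stood at 46.0, 143 and 69.5 CPM in collagen barcodes, with 2 UMIs over all GCG barcodes. COL15A1 had no UMI in GCG barcodes and was at least 183-fold higher in collagen barcodes, taking the floor of 3 counts over the group (53.8-fold without replicate 2). Such limits pool the libraries, so they fall with the depth of any library left out. COL21A1 passed at a log2 fold change of 7.55 ± 0.85.

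Matrix glycoproteins were higher for 21 of 24 tested and lower for none (median 5.95). MGP, matrix Gla protein, an inhibitor of calcification, stood at 1300, 3342 and 1173 CPM in collagen barcodes, against 0.0653, 0.106 and 0.695 CPM in GCG barcodes (log2 fold change 12.49 ± 0.30). TNC, tenascin C, stood at 190, 241 and 134 CPM in collagen barcodes and had 5 UMIs over all GCG barcodes (10.04 ± 0.44). Proteoglycans were higher for 8 of 10 and lower for 1, GPC6 (median 9.12). ASPN, which binds collagen and TGF-beta, had no UMI in GCG barcodes and was at least 1798-fold higher, but its level differed by library: 6.57, 30.7 and 154 CPM. Replicate 3 held 170 of its 177 UMIs, and without replicate 3 the limit was 229.9-fold. BGN, biglycan, stood at 158, 292 and 135 CPM in collagen barcodes, against 0.196, 0 and 0.397 CPM in GCG barcodes (10.21 ± 0.43). Basement membrane genes were higher for 12 of 15 tested (median 3.39), among them the type IV collagen chain COL4A1 (5.58 ± 0.29) and the linker protein NID1 (5.85 ± 0.85). LAMA5, LAMB1 and AGRN did not pass.

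Of the genes that fold, trim and crosslink collagen, 12 of 21 tested were higher and none lower (median 1.45). SERPINH1, the collagen chaperone HSP47, stood at 197, 317 and 206 CPM in collagen barcodes, against 8.55, 6.44 and 7.64 CPM in GCG barcodes (4.96 ± 0.25). PCOLCE, which enhances procollagen cleavage, stood at 552, 195 and 264 CPM in collagen barcodes and at 3.26, 3.80 and 4.27 CPM in GCG barcodes (5.63 ± 0.28). The crosslinking enzyme LOX had no UMI in GCG barcodes and was at least 386-fold higher (164-fold without replicate 3), and its relative LOXL2 passed at 5.83 ± 0.76. The prolyl and lysyl hydroxylase genes P4HA2, P4HB, PLOD2, PLOD3, P3H1 and P3H3 did not pass. Matrix proteases and their inhibitors were higher for 12 of 14 (median 5.06). Among them MMP2, a gelatinase, stood at 91.9, 61.4 and 136 CPM in collagen barcodes with 1 UMI over all GCG barcodes, and the inhibitor SERPINF1 passed at 8.03 ± 0.40.

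Among matrix receptors and adhesion molecules, 7 of 12 tested were higher and 2 lower (median 0.94). The fibroblast surface protein THY1 stood at 158, 164 and 129 CPM in collagen barcodes, against 0.0653, 0.106 and 0.695 CPM in GCG barcodes (8.49 ± 0.42). CDH11, a cadherin of mesenchyme, passed at 8.22 ± 0.39, the hyaluronan receptor CD44 at 8.21 ± 0.62, and DDR2, a receptor for fibrillar collagen, at 6.58 ± 0.48. The integrin subunit ITGB1 and DDR1 were the 2 lower genes.

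Mesenchymal transcription factors were higher for 20 of 21 tested and lower for 1, FOXP1 (median 6.99). Of the 28 listed, 7 were too low to be tested. Genes with next to no UMI in GCG barcodes, here and in the other lists, could be tested only through their level in collagen barcodes, which all but fixes their direction, so the counts and medians describe the lists and support nothing further. TWIST1, a helix-loop-helix factor of mesoderm and cranial mesenchyme, stood at 341, 143 and 219 CPM in collagen barcodes with 2 UMIs over all GCG barcodes. PRRX2, the paralog of PRRX1, stood at 250, 225 and 184 CPM in collagen barcodes with 1 UMI over all GCG barcodes. MEOX2 had none there and was at least 203-fold higher (108-fold without replicate 2). Of the factors listed for gut and pancreatic mesenchyme, 6 of 10 tested were higher and 2 lower (median 2.23). FOXF2 stood at 59.1, 40.9 and 28.9 CPM and BARX1, a factor of stomach mesenchyme, at 19.7, 5.12 and 22.6 CPM in collagen barcodes, both with no UMI in GCG barcodes. TBX3 passed at 5.52 ± 0.65 and MEIS2 at 3.84 ± 0.30. The lower genes were ISL1 and GATA4, which islet or other endoderm cells also express. Several factors of this list were near the limit of detection: TCF21 had 1 UMI, NKX2-5 4, NKX3-2 4, FOXF1 12 and HAND2 12 over all collagen barcodes, while WT1 and TLX1 had none, and none of these was tested.

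The contractile cytoskeleton was higher for 14 of 15 genes tested and lower for 1 (median 3.36). TPM2, a tropomyosin, stood at 433, 522 and 321 CPM in collagen barcodes, against 1.70, 1.64 and 2.78 CPM in GCG barcodes (7.38 ± 0.28). ACTA2, smooth muscle actin, stood at 26.3, 205 and 318 CPM in collagen barcodes, against 0.588, 0.106 and 0.794 CPM in GCG barcodes (9.16 ± 0.35), and had a UMI in 44 of 117 members. SMTN, smoothelin, was the lower gene, at 6.57, 0 and 9.93 CPM in collagen barcodes, against 21.9, 27 and 24.1 CPM in GCG barcodes (-1.80 ± 0.50). That call was lost with DESeq2 (adjusted p = 0.117) and in edgeR after thinning to 5000 UMIs (adjusted p = 0.114). Among genes of mature smooth muscle, MYH11 had no UMI, CNN1 was seen in 3 members and DES in 6, though DES was called higher. The 8 smooth muscle or pericyte markers, ACTA2 among them, summed to 98.5, 358 and 450 CPM in collagen barcodes. Their sums were 2.74, 1.90 and 2.78 CPM in GCG barcodes and 41.9, 22.6 and 112 CPM in other barcodes. Of 6 tested, 6 were higher than in GCG barcodes (19.8% over all genes) and 4 higher than in other barcodes (12.6% over all genes).

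Many contractile genes are bound by serum response factor at the CArG box, a sequence with CC, 6 A or T bases and GG that reads the same way on both strands. Promoters from 250 bases before to 50 bases after the start (RefSeq, GRCh38.p14) were found for 14 of the 19 listed genes, as 27 promoters. A CArG box was present in 4 of those 27 (14.8%), against 454 of 35116 promoters of all genes (1.29%). The promoters of 3 of these genes are shown because they hold the motif, in capitals, and because their genes were called in different directions, with the call on SMTN open to the limits above: ACTG2 (chr2:73892758-73893057, plus strand) and CNN2 (chr19:1026358-1026657, plus strand) were higher in collagen barcodes, and SMTN (chr22:31084746-31085045, plus strand) was lower.
ACTG2: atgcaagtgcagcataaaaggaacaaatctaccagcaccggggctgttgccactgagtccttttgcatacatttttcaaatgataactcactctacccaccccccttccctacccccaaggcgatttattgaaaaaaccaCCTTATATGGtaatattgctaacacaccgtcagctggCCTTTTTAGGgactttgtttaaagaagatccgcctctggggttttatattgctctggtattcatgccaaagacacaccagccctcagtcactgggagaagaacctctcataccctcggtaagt
CNN2: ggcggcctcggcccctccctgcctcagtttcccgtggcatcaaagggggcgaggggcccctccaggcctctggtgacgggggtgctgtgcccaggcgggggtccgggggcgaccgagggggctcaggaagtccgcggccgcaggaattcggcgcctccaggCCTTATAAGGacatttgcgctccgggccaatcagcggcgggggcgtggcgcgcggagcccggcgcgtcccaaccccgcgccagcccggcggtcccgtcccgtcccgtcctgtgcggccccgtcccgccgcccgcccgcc
SMTN: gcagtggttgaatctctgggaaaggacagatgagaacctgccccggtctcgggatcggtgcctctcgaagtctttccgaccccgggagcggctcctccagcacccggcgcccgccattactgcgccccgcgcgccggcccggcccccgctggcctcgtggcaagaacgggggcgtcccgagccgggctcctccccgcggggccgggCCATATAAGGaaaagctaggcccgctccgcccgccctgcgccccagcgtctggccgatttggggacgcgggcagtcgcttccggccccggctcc
ACTG2, an enteric smooth muscle actin, holds 2 boxes, and the first begins 110 bases before the start. It stood at 26.3, 20.5 and 24.4 CPM in collagen barcodes and had no UMI in GCG barcodes, at least 355-fold higher (208-fold without replicate 2). CNN2, calponin 2, stood at 78.8, 25.6 and 76.8 CPM in collagen barcodes, against 0.326, 1.00 and 1.19 CPM in GCG barcodes. The fourth gene with a box, ACTN1, stood at 190, 184 and 170 CPM in collagen barcodes, against 68.4, 72.8 and 70.9 CPM in GCG barcodes, and passed. A match is a description of these letters and not a binding site. The SMTN promoter shown lies inside the gene (chr22:31064105-31104757), at an internal start. Counts and calls are per gene, so which start was in use was not tested.

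Genes of cell shape were higher for 11 of 13 and lower for 2, S100A6 and EZR (median 4.14). LGALS1, galectin-1, stood at 3198, 2662 and 3241 CPM in collagen barcodes, against 0.326, 0.317 and 1.49 CPM in GCG barcodes (log2 fold change 11.68 ± 0.27). VIM, the intermediate filament of mesenchymal cells, had a UMI in all 117 collagen barcodes but also in 2585 of 2627 GCG barcodes. Its level was 7552, 10053 and 11626 CPM in collagen barcodes, against 579, 794 and 786 CPM in GCG barcodes (3.58 ± 0.14). The annexin ANXA1 passed at 9.85 ± 0.30, and CAV1 and CAVIN1, coat components of caveolae, at 8.83 ± 0.91 and 8.98 ± 0.53.

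Growth factor receptors were higher for 13 of 23 tested and lower for 2, IGF2R and ROR1 (median 1.34). PDGFRA, a receptor of fibroblast precursors, stood at 52.5, 40.9 and 82.2 CPM in collagen barcodes and had no UMI in 2627 GCG barcodes, at least 1087-fold higher (525-fold without replicate 3). PDGFRB stood at 276, 148 and 145 CPM in collagen barcodes, against 0.131, 0.106 and 0.298 CPM in GCG barcodes (9.35 ± 0.45). Growth factor ligands and inhibitors were higher for 27 of 33 and lower for 3 (median 3.55). Secreted WNT inhibitors were among those named by size. FRZB stood at 401, 154 and 140 CPM in collagen barcodes and had 10 UMIs over all GCG barcodes (8.87 ± 0.43). SFRP2 stood at 6.57, 358 and 172 CPM and DKK1 at 427, 46.1 and 39.7 CPM in collagen barcodes, so each was carried mainly by different libraries. In replicate 2 a single barcode held 87.1% of the SFRP2 UMIs and all DKK1 UMIs. The 3 lower ligands were VEGFA, WNT4 and PDGFA. PTN, pleiotrophin, a heparin-binding growth factor named here after its values were seen, had a UMI in 112 of 117 members.

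Targets and effectors of YAP and TGF-beta signalling were higher for 13 of 18 and lower for 2 (median 2.38). LTBP1, which holds latent TGF-beta in the matrix, stood at 217, 66.5 and 130 CPM in collagen barcodes with 8 UMIs over all GCG barcodes (8.67 ± 0.51). The coactivators WWTR1 (TAZ) and YAP1 passed at 5.43 ± 0.42 and 5.21 ± 0.69, and the receptor AXL at 5.85 ± 0.74. The lower genes were TEAD1 and CRIM1.

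Of the retinoid genes, 4 of 7 tested were higher and 1 lower. The retinoic acid binding protein CRABP1 stood at 795, 169 and 462 CPM in collagen barcodes with 6 UMIs over all GCG barcodes (10.30 ± 0.37). CRABP2 passed at 7.08 ± 0.41. ALDH1A1, a retinaldehyde dehydrogenase, was lower, at 6.57, 92.1 and 9.93 CPM in collagen barcodes, against 1139, 1084 and 700 CPM in GCG barcodes (-5.04 ± 0.25). Imprinted growth genes were higher for 5 of 8 and lower for 1, CDKN1C. The CDKN1C call rests on replicates 2 and 3. Its level was 519, 51.2 and 144 CPM in collagen barcodes, against 117, 124 and 214 CPM in GCG barcodes. In replicate 1 a single barcode held 93.7% of its UMIs, and with all 3 libraries in the fit no imprinted gene was lower. Fetal growth factor IGF2 stood at 171, 71.7 and 70.4 CPM in collagen barcodes, against 1.18, 2.53 and 1.59 CPM in GCG barcodes (4.96 ± 0.43), and MEST passed at 4.09 ± 0.24.

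**Figure D3:**
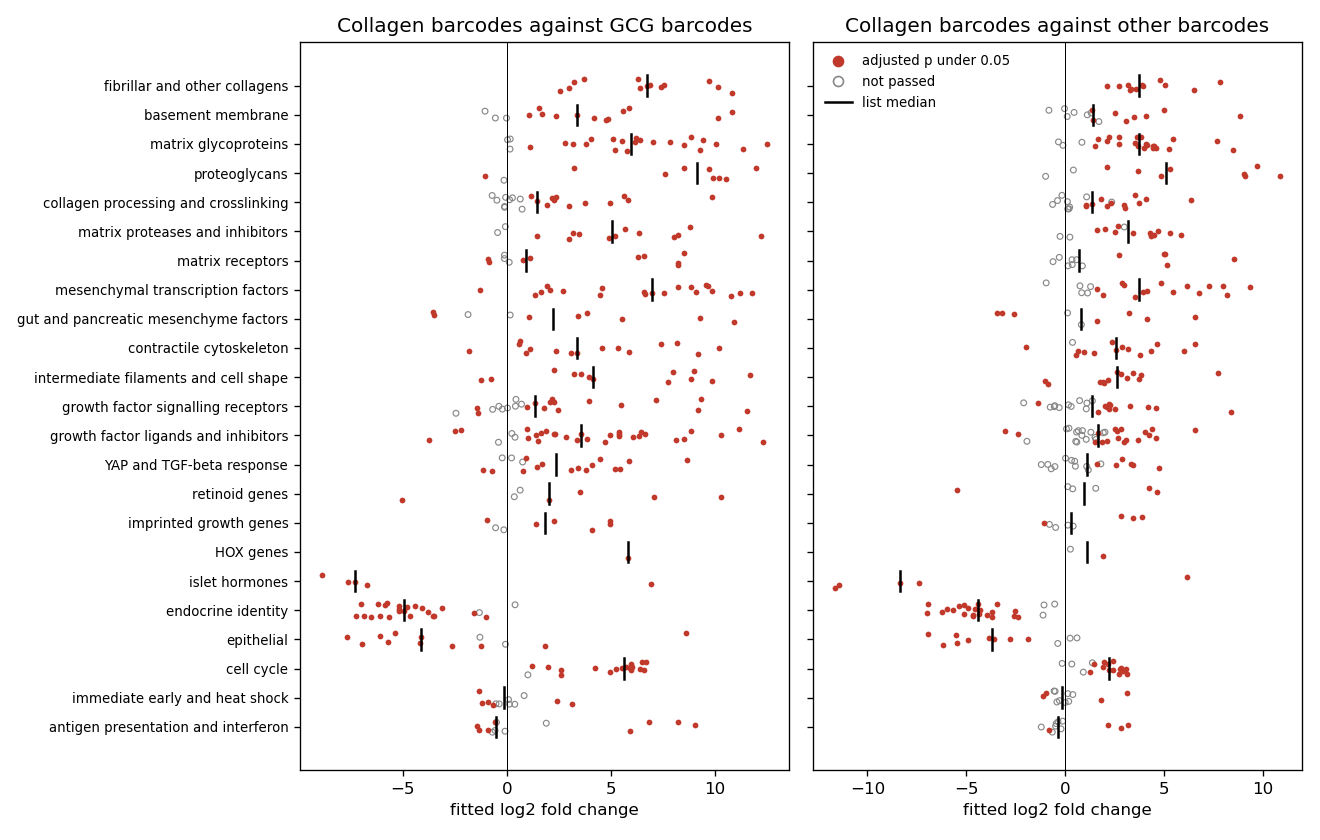
Fitted log2 fold change of every tested list gene, collagen barcodes against GCG barcodes (left) and against other barcodes (right), with filled points past an adjusted p of 0.05 and black bars at the list medians. Genes at 0 UMIs on 1 side have fitted values that depend on the prior count. Matrix and mesenchymal lists lie to the right of 0 in both panels and the endocrine list to the left.

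HOX genes, which are expressed along the body axis in the order of their paralog number, were few in UMIs but differed in kind. HOXB2 was the only HOX gene tested against GCG barcodes, and it was higher (5.81 ± 0.91). Genes of paralog groups 1 to 4 summed to 151, 46.1 and 44.3 CPM in collagen barcodes, against 0.196, 0.528 and 0.893 CPM in GCG barcodes and 25.4, 10.0 and 23.6 CPM in other barcodes. Groups 5 to 8 summed to 17 UMIs in 7 collagen barcodes, 0 in GCG barcodes and 4 in other barcodes. Groups 9 to 13 summed to 19 UMIs, all in 6 of 117 collagen barcodes, against 0 in 2627 GCG barcodes and 0 in 908 other barcodes. By library these 19 UMIs fell as 0, 10 and 9, and 1 barcode of replicate 2 held 8. HOXA10 had 9 of them and HOXD9 had 5. Such counts describe these few barcodes and were not tested.

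Dividing cells were common among the collagen barcodes. At least 3 of 8 mitotic genes were detected in 3 of 9, 2 of 11 and 23 of 97 collagen barcodes, against 1 of 854, 5 of 860 and 0 of 913 GCG barcodes. In other barcodes the counts were 16 of 297, 9 of 156 and 24 of 455. Cell cycle genes were higher for 17 of 18 tested against GCG barcodes (median 5.61), with CDKN1A the gene that did not pass. NUSAP1, a spindle protein, stood at 190, 128 and 163 CPM in collagen barcodes, against 0.392, 2.53 and 0.0992 CPM in GCG barcodes (6.66 ± 0.36). UBE2C passed at 6.49 ± 0.41 and BIRC5, survivin, at 6.39 ± 0.41. As a description, the 28 dividing collagen barcodes held POSTN at 311 CPM and MGP at 484 CPM, against 804 and 1861 CPM in the 89 that did not meet the criterion.

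Nearly all endocrine genes tested were lower. Of 25 genes of endocrine identity tested, 23 were lower in collagen barcodes and none higher (median -4.94), and PCSK1 and PAM did not pass. TTR, transthyretin, stood at 624, 461 and 680 CPM in collagen barcodes, against 74756, 72914 and 74811 CPM in GCG barcodes (-7.22 ± 0.13). Chromogranin A, CHGA, stood at 85.4, 133 and 62.3 CPM in collagen barcodes, against 11217, 12616 and 4329 CPM in GCG barcodes (-6.51 ± 0.18). STMN2 and SCG3 were listed at 0 in collagen barcodes of replicates 1 and 2. GCG itself, which chose the reference barcodes, stood at 873, 768 and 739 CPM in collagen barcodes, and 116 of 117 had at least 1 UMI of it. That level was 0.862%, 0.634% and 1.14% of the level over each whole library. For TTR the same share was 1.11%, 0.783% and 1.44%. The part that free RNA in the droplets had in these UMIs was not tested.

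Among hormones 4 of 5 were lower and 1 higher (median -7.30, or -2.20 with genes at 0 set to their bound). INS and SST passed at -6.73 ± 0.27 and -7.30 ± 0.26. The higher gene was NPY, neuropeptide Y, at 735, 1070 and 206 CPM in collagen barcodes, against 5.61, 6.39 and 1.98 CPM in GCG barcodes (6.92 ± 0.26). Only 9 of 117 collagen barcodes held an NPY UMI, and the single richest barcode held 93.8%, 100% and 81.6% of them in replicates 1, 2 and 3.

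Keratin transcripts were found in part of the collagen barcodes. KRT18 had a UMI in 28 and KRT8 in 26 of 117, against 1916 and 2469 of 2627 GCG barcodes. Of the collagen barcodes 18 (2, 3 and 13 by library) held at least 10 UMIs of KRT8 and KRT18 in sum. Of 13 epithelial genes tested 9 were lower, among them EPCAM at 59.1, 51.2 and 15.4 CPM in collagen barcodes, against 331, 336 and 371 CPM in GCG barcodes (-4.10 ± 0.28), and 2, CLDN6 and KRT18, were higher. In replicate 1 a single barcode had 90.1% of the KRT18 UMIs. In replicate 2 a single barcode, which also held SOX2, had 75.1% of them. With 3 libraries fitted and SOX2 collagen barcodes left out, the KRT18 call was lost (edgeR adjusted p = 0.151). EPCAM had no UMI in 103 of 117 collagen barcodes. KRT19 was at 1819 CPM in the collagen barcodes of replicate 1, but all 277 of its UMIs lay in 1 barcode. That barcode, with 29 collagen UMIs, also held 56 KRT8, 82 KRT18, 42 KRT17, 105 NPY and 8 EPCAM UMIs. In replicate 3 a barcode with 13 collagen UMIs held 51 KRT19, 75 KRT17, 186 NPY and 5 EPCAM UMIs. In replicate 2 a barcode with 26 collagen UMIs held 952 KRT17, 16 KRT19 and 9 EPCAM UMIs, but no NPY. These 3 were the richest in KRT19 among the collagen barcodes of their libraries. None held a PRRX1 UMI, but the barcode of replicate 1 held 15 LUM UMIs and that of replicate 2 held 3 LUM and 5 POSTN UMIs. None was called a doublet by Scrublet, which called no collagen barcode in any library. They were picked out after their values were seen.

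The barcode that met both rules, from replicate 3, had 6733 UMIs, 66 collagen UMIs and GCG at 5.54%. It held no LUM or POSTN UMI, its mitochondrial share was 19.1%, and Scrublet did not call it a doublet.

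Markers of further cell types were checked over all 117 barcodes. The endothelial genes PECAM1, CDH5 and KDR, the neural crest gene SOX10, the hepatic gene ALB, the enterochromaffin gene TPH1, the immune gene PTPRC and the basal keratin KRT5 had no UMI. A count of 0 in 117 barcodes allows a share of up to 2.56% of barcodes with a UMI, and limits no share of barcodes expressing the gene. Other members of the same lists were present. The 8 endothelial markers summed to 19.7, 169 and 48.8 CPM in collagen barcodes, against 162, 147 and 166 CPM in GCG barcodes. Of the 3 tested, CLDN5 and ERG were higher and EGFL7 was lower. The neural crest list summed to 6.57, 81.9 and 91.2 CPM in collagen barcodes, against 169, 197 and 124 CPM in GCG barcodes. Its member S100B was higher, at 6.57, 71.7 and 76.8 CPM in collagen barcodes, against 1.31, 1.27 and 4.27 CPM in GCG barcodes, and had a UMI in 21 of 117 members. ERBB3 was lower. The squamous list summed to 315, 5052 and 194 CPM in collagen barcodes, against 0.457, 0.475 and 0.397 CPM in GCG barcodes. Nearly all of that was KRT17, a keratin of basal and stressed epithelia. It had a UMI in 41 of 117 collagen barcodes, against 4 of 2627 GCG barcodes and 11 of 908 other barcodes. The summed level of 8 cartilage and bone genes was 158, 215 and 211 CPM in collagen barcodes, against 4.37, 3.75 and 6.35 CPM in GCG barcodes, led by COL2A1, SOX9 and RUNX2, while ACAN had 11 UMIs. The 7 skeletal or cardiac muscle markers summed to 13.1, 35.8 and 104 CPM in collagen barcodes, against 1.37, 1.11 and 1.19 CPM in GCG barcodes. Only ACTC1 of these was tested. It had no UMI in GCG or other barcodes and was at least 731-fold and 155-fold higher, mostly from replicate 3. MYOD1 had no UMI in GCG barcodes and was not tested against them. The 8 neural markers summed to 171, 527 and 427 CPM in collagen barcodes, against 50.9, 37.8 and 74.0 CPM in GCG barcodes, and ranged from 294 to 790 CPM in other barcodes.

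The transcription factor SOX2, found in neural and foregut progenitors, marked part of the collagen barcodes. It had a UMI in 27 of 117 (1, 3 and 23 by library), against 19 of 2627 GCG barcodes and 153 of 908 other barcodes. The 27 barcodes were set apart after these values were seen, so what follows is a description with no test. They held a median of 27 collagen UMIs, against 69 in the 90 without SOX2. Barcodes with SOX2 were deeper on average in each library, and depth was not matched. In replicate 3, the 74 of 97 collagen barcodes without SOX2 held 756767 of 1107256 UMIs. TTYH1 stood at 875 CPM in barcodes with SOX2, against 13.1 CPM in those without. The small heat shock protein CRYAB stood at 2507 CPM with SOX2, against 56.3 CPM without. FABP7, a fatty acid binding protein of radial glia, stood at 316 CPM with SOX2, against 6.03 CPM without. In the collagen barcodes of replicate 1 CRYAB had 1 UMI and FABP7 had 0. A single barcode held 74.6% of the CRYAB and 82.4% of the FABP7 UMIs in replicate 2. In replicate 3 these shares were 26.0% and 23.1%. POSTN stood at 194 CPM with SOX2, against 885 CPM without, and PRRX1 at 95.7 CPM, against 471 CPM. TWIST1 was close, at 224 CPM with SOX2 and 221 CPM without, and so was COL3A1, at 1569 and 1839 CPM.

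**Figure D4:**
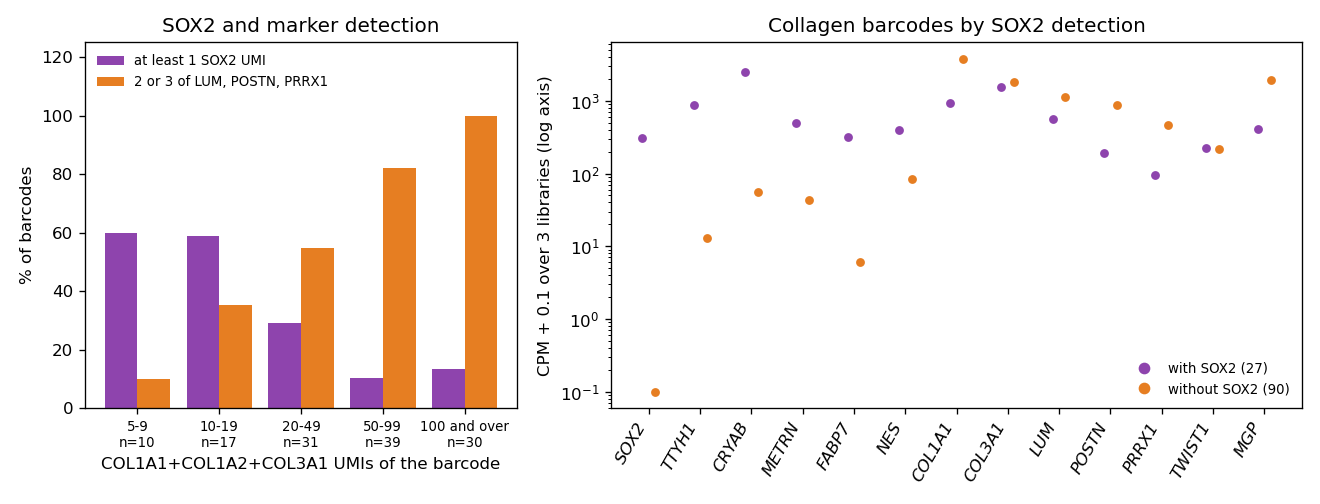
Left, percent of barcodes with a SOX2 UMI and percent with 2 or 3 of LUM, POSTN and PRRX1, by collagen UMIs of the barcode, with the band just outside the threshold first. Right, CPM plus 0.1 (log axis) over the 3 libraries in the 27 collagen barcodes with SOX2 and the 90 without. SOX2 is found in 58.8% of barcodes with 10 to 19 collagen UMIs, in 10.3% of those with 50 to 99 and in 13.3% of those with 100 or more.

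Both measures also varied with the collagen count, which is the count that chose the barcodes. SOX2 was found in 6 of 10 barcodes just outside the threshold and in 10 of 17 with 10 to 19 collagen UMIs. At 20 to 49 it was found in 9 of 31, at 50 to 99 in 4 of 39 and at 100 or more in 4 of 30. Markers went the other way: 2 or 3 of LUM, POSTN and PRRX1 were found in 1 of the 10 barcodes just outside and in 6 of 17 with 10 to 19. The counts were then 17 of 31, 32 of 39 and 30 of 30. Within the band of 10 to 19 they were uneven, with 5 of the 10 barcodes at 10 to 14 UMIs holding 2 or 3 markers.

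Set against the other barcodes, in which GCG lay under 5% of UMIs, most of the same lists were called in equal or smaller numbers. Of 11203 genes tested, 12.6% were higher in collagen barcodes and 13.0% lower, 25.6% in either direction (median log2 fold change -0.09). With replicate 1 entered as well, in a fit chosen after seeing the data, 34.0% of 11926 genes were called against other barcodes and 46.1% of 13829 against GCG barcodes. The collagen sums are shared between both comparisons, so their values are given side by side and not as independent evidence. The fibrillar and other collagens were higher for 12 of 12 tested (median 3.74), matrix glycoproteins for 21 of 24 (3.77), proteoglycans for 8 of 10 (5.09) and mesenchymal transcription factors for 15 of 20 (3.74). None of these lists had a lower gene. LUM stood at 11, 18.5 and 28.4 CPM in other barcodes (log2 fold change of collagen over other barcodes 4.87 ± 0.30, edgeR adjusted p = 4.54e-05). POSTN stood at 0.612, 0 and 6.74 CPM in other barcodes (7.70 ± 0.62, adjusted p = 0.000113), and PRRX1 at 0.612, 0 and 1.68 CPM (8.21 ± 0.44, adjusted p = 2.08e-05). Against both kinds of barcode the collagen barcodes of every library were higher for these 3 genes. PRRX1 had 9 UMIs over all other barcodes, so the direction of its test was all but fixed here as well.

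Lists with many calls against GCG barcodes but fewer against other barcodes were the ligands, with 16 of 33 higher and 2 lower (median 1.67), and the YAP and TGF-beta genes, with 6 of 17 higher (median 1.10). Basement membrane genes were higher for 8 of 15 (1.39) and receptors for 11 of 23, with 1 lower (1.39). The difference between the comparisons was not tested. Of cell cycle genes 14 of 18 were higher (median 2.21), with CENPF at 3.12 ± 0.35, and MCM2, RRM2, CCND1 and CDKN1A did not pass. SOX2 did not pass, at 91.9, 113 and 96.6 CPM in collagen barcodes and 96.4, 34.6 and 112 CPM in other barcodes.

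Genes named for their size of change against other barcodes came from several lists. GREM1, a BMP antagonist, passed at 6.59 ± 0.76, PCOLCE at 6.36 ± 0.32, and COL6A3, a type VI collagen chain, at 6.51 ± 0.34. The collagen-binding integrin ITGA11 and the forkhead factor FOXD1 had no UMI in other barcodes and were at least 75.5-fold and 145-fold higher (30.3-fold and 75.7-fold without replicate 3). Factors listed for gut and pancreatic mesenchyme were split against other barcodes, with 4 of 9 tested higher and 3 lower (median 0.83). GATA6, a member of that list that endoderm also expresses, was lower at 0, 5.12 and 0.903 CPM in collagen barcodes. In other barcodes it stood at 11, 14.5 and 21.4 CPM (-3.42 ± 0.84, edgeR adjusted p = 0.0188). It did not pass against GCG barcodes. Endocrine identity genes were lower for 22 of 25, and epithelial genes for 9 of 12. INS stood at 13.1, 30.7 and 4.52 CPM in collagen barcodes, against 959, 4544 and 1069 CPM in other barcodes (-7.37 ± 0.24).

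Genes outside every list were named by size. Higher than in GCG barcodes were HHIP, a hedgehog-binding protein, EMP1, CYTL1, the protocadherin PCDH18, TMEM119, CYP1B1, NUPR1 and DKK2. HHIP, EMP1, PCDH18 and TMEM119 had no UMI in GCG barcodes and were at least 1249-fold, 1188-fold, 1412-fold and 934-fold higher. Without replicate 2 these limits were 632-fold, 625-fold, 807-fold and 538-fold. CYTL1, a secreted protein first known from CD34+ cells, stood at 204, 404 and 209 CPM in collagen barcodes with 1 UMI over all GCG barcodes. NUPR1, a stress-induced chromatin protein, stood at 210, 333 and 334 CPM in collagen barcodes with 4 UMIs over all GCG barcodes (11.21 ± 0.38). Lower were MAPK13, SERPINF2, TMEM86B, ST8SIA3, ACVR1C, TM4SF5, APOB and AQP3. All of these but MAPK13 had no UMI in collagen barcodes and were at least 25.5-fold to 40.1-fold lower. Without replicate 3, which gave most of the collagen UMIs, these limits ran from 6.01-fold to 9.89-fold.

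Against other barcodes the named higher genes outside the lists included TMEM119, SPP1, CYTL1, DNM3OS, NUPR1, PLAC9 and CD248. DNM3OS, the host transcript of a microRNA cluster active in mesenchyme, had 2 UMIs over all other barcodes, and the stromal marker CD248 had 3. SPP1, osteopontin, stood at 26.3, 189 and 129 CPM in collagen barcodes, against 32.4, 0.501 and 0.481 CPM in other barcodes, so the direction in replicate 1 differed from that in the 2 libraries tested. In replicate 2 all SPP1 UMIs lay in 1 barcode.

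Against GCG barcodes, 2 of 12 immediate early and heat shock genes were higher and 4 lower, and 4 of 13 antigen presentation and interferon genes were higher and 4 lower. Over all genes tested, 19.8% were higher and 20.7% lower. Whether these few genes differ from that share was not tested, so single genes are described below. JUN stood at 118, 87.0 and 352 CPM in collagen barcodes, against 458, 305 and 512 CPM in GCG barcodes (-1.17 ± 0.21), a call lost in edgeR without the library block (adjusted p = 0.102), and JUNB passed at -1.34 ± 0.23. IER3 and HSPB1 were higher, at 3.11 ± 0.30 and 2.42 ± 0.22. IFITM3, an interferon-induced membrane protein also found in unstimulated mesenchyme, stood at 650, 737 and 371 CPM in collagen barcodes, against 0.131, 0.211 and 1.89 CPM in GCG barcodes (9.05 ± 0.30). The interferon target IFI27 was higher, with 24 UMIs over all collagen barcodes and 2 over all GCG barcodes, while IFI6 and ISG15 did not pass. The antigen-presenting genes HLA-C, HLA-E and B2M were lower.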

How the data were processed

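The deposited values are whole-number UMI counts per gene and barcode from 3 libraries, which the authors produced using GRCh38 and version 4.0.0 of Cell Ranger, per the submitters' processing notes. Nothing was normalized before deposit. Counts were summed per library and barcode group, and CPM were computed from those sums. Differences were tested with edgeR 4.0.16 (quasi-likelihood, TMM, filterByExpr, library as a block, Benjamini-Hochberg at 0.05) where both sides had at least 10 barcodes, so with replicates 2 and 3. The sums being compared come from the same library, which is what pairs them. DESeq2 1.42.0 was an alternative. The code was tested on simulated data. Folds against 0 UMIs use a floor of 3 counts over the group. Doublets were called with Scrublet and kept. Libraries shared 1, 4 and 2 barcodes in their pairs, none of them passing the filter. Named genes are up to 4 per list by size of change among those called, and 8 per direction outside the lists. The collagen barcodes and the gene lists were chosen with earlier results of these data known. Protein sequences were not used here. A few named genes are not reported here.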

Additional observations from a re-analysis of the deposited data

How the results depend on the processing

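The mean share of collagen barcodes stayed within 1 SD under every alternative run. That SD, 3.33, is larger than the mean of 2.84%, so this check could hardly fail. When 1 library was left out, the mean share ranged from 0.923% to 3.88%. Against GCG barcodes, 2651 genes were higher and 2767 lower. DESeq2 called 1401 and 1050, and thinning to 5000 UMIs gave 1435 and 1414. With all 3 libraries entered (chosen after seeing the data), leaving out replicate 3 gave 1315 higher. Against other barcodes, 1409 were higher and 1456 lower. DESeq2 called 626 and 478, and thinning gave 866 higher. The lower count was 2218 with 3 libraries, 2341 without replicate 2, 2873 at a mitochondrial limit of 30% and 3231 with SOX2 barcodes left out on both sides. The cause of these moves was not tested. Without the replicate block, 2906 genes were higher and 3092 lower against GCG barcodes, and 1640 and 1789 against other barcodes. Without thinning, POSTN was found in 76.2% and PRRX1 in 72.5% of collagen barcodes. Over the genes named with a fold, 1295 of 1306 values against GCG barcodes and 1494 of 1537 against other barcodes kept their direction and side of the threshold. Leaving out replicate 1 is counted among these alternatives but repeats the main fit. Many of these genes were named for the size of a change already called. The counts therefore describe the named genes and are no measure of how stable the calls are.

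The values that changed sign all came from alternatives chosen after seeing the data, on fits with 3 libraries. KRT8 against GCG barcodes was 0.035 with 3 libraries, 0.075 with DESeq2, 0.12 and 0.28 without replicates 2 and 3, and 0.37 without dividing barcodes. Against other barcodes KRT8 was 0.18 and 0.12 without replicates 2 and 3 and 0.26 without dividing barcodes. CDKN1C was 0.23 and 0.15 without replicates 2 and 3, FST was -0.92 without replicate 3, and KRT18 was -0.11 without SOX2 barcodes. The fit of replicates 2 and 3 leaves no residual degrees of freedom without either library, so it was not run. With 1 residual degree of freedom, adjusted p-values lean on the spread shared across genes. Replicate 3 gave 97 of 117 barcodes.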

Other observations

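Barcodes outside the filter also reached 10 collagen UMIs, with 3 in replicate 1, 0 in replicate 2 and 35 in replicate 3. In replicate 3, 11 had under 1000 genes and 24 failed on the mitochondrial limit alone. The 35 had medians of 3891 UMIs and 37.1% mitochondrial UMIs.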
